A study of Mus musculus with 6 samples.

Results

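The replication-dependent histone genes encode the core histones H2A, H2B, H3 and H4 and the linker histone H1 that package newly made DNA. They were taken as every gene symbol in the count tables that begins with Hist1, Hist2, Hist3 or Hist4 followed by the type, which gave 70 of 54735 symbols. There were 6 H1, 20 H2A, 19 H2B, 12 H3 and 13 H4 symbols, of which 67 are annotated as protein-coding and 3 as pseudogenes. RNA came from whole mouse pancreas at stage e16.5 on a mixed C57Bl6/129SV background, with 3 samples of genotype Neurog3:cre (control) and 3 of genotype Neurog3:cre;RARdnfl/fl (RARdn). All 6 samples therefore carry the Cre driver. RARdn is the usual short form for a dominant-negative retinoic acid receptor, which the labels do not spell out. Neurog3 marks the precursors of endocrine cells, so a small share of the cells in a whole pancreas descends from cells that express this driver, and the labels do not say whether a library is 1 embryo or a pool.

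Cells make most of these mRNAs during S phase, from short genes without introns that sit in clusters. Instead of a poly(A) tail, the usual histone mRNA ends just after a short stem-loop that the stem-loop binding protein (Slbp) holds and the U7 small nuclear ribonucleoprotein helps to cut. Some histone genes also give longer transcripts that run past the stem-loop to an ordinary poly(A) site, and these are found in cells that have left the cell cycle. A library made from RNA with poly(A) tails captures the longer form and loses most of the short one.

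The stem-loop is the sequence on which this difference turns. It was searched in the annotated transcripts (GENCODE for GRCm38) on the transcribed strand as the histone stem-loop, a fully paired stem of 6 base pairs that opens with GG and closes with CC around a loop that begins with TTT, and 44 of the 70 genes held it (62.9%) against 79 of all 55450 annotated genes (0.142%). Only 6 different stem-loops occurred, and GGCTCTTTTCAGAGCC accounted for 26 of the 44 genes. The lines give the stem-loop in capitals with up to 5 bases on each side, 5′ to 3′ on the transcribed strand, and the GRCm38 position of the capitals, for the most abundant H1 gene, for the genes that fell in RARdn and had a match, and for 2 genes described later.
Hist1h1c, chr13:23739512-23739527, plus strand: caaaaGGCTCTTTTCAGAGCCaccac
Hist1h2bb, chr13:23747203-23747218, plus strand: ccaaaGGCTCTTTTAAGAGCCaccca
Hist1h4d, chr13:23581950-23581965, plus strand: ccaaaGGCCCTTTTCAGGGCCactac
Hist1h4f, chr13:23551291-23551306, minus strand: tcaaaGGCCCTTTTCAGGGCCaccca
Hist1h3c, chr13:23745047-23745062, minus strand: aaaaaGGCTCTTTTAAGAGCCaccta
Hist1h4i, chr13:22040966-22040981, minus strand: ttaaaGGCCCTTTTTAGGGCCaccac
The H1 gene has the commonest stem-loop, the 3 H4 genes have a stem that opens with GGCCC, and Hist1h2bb and Hist1h3c share a loop that differs from that of Hist1h1c. The annotated transcript runs on for 23 bases after the stem-loop in Hist1h2bb and 33 in Hist1h4f, but for 330 in Hist1h4i, 770 in Hist1h4d and 840 in Hist1h1c. In Hist1h1c the last AATAAA or ATTAAA, the usual poly(A) signal, begins 26 bases before the annotated end.

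Counts in genes ranged from 35256531 to 52015498 per library, so 1 read was worth 0.0192 to 0.0284 CPM (the gene's counts scaled to a common total of counts in genes). Levels below are plain CPM, while log2 fold changes come from edgeR with TMM factors, which were 1.22 in RARdn 1, 0.862 in RARdn 3 and 0.975 to 1.004 in the other libraries. RARdn 1 stood apart from its group. Liver markers (Alb, Afp, Apoa1 and Ttr) summed to 1735 CPM there, against 548 and 384 CPM in RARdn 2 and 3 and 378 to 403 CPM in the controls. The 8 listed pancreas epithelial markers summed to 7948 CPM in RARdn 1, against 16260 and 21330 CPM in RARdn 2 and 3. In the controls they summed to 18160 to 19610 CPM. Among them, Pdx1 was present in every library at 32.2 to 66.9 CPM. The labels name no separate animals or litters, so the p-values reflect sample spread that may be technical. Whole pancreas RNA cannot tell fewer cells of a type from less RNA per cell.

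The summed level of the 70 genes was lower in RARdn. It was 152, 212 and 188 CPM in the 3 controls and 121, 128 and 107 CPM in the 3 RARdn libraries. No RARdn library reached the lowest control, and the means were 184 ± 30.2 and 119 ± 10.7 CPM (SD, n = 3), a log2 ratio of -0.63. Most of these counts came from 2 genes, the H1 gene Hist1h1c and the H2B gene Hist1h2bc, with 70.6 to 75.9% of the counts in controls and 61.8 to 65.0% in RARdn. Without those 2 genes, a choice made after the values were seen, the sums were 44.7, 51.3 and 52.4 CPM in controls against 43.9, 48.9 and 37.4 CPM in RARdn. The groups then overlapped, with a log2 ratio of -0.19.

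The 5 types did not share 1 pattern. H1 summed to 78.5, 116 and 94.2 CPM in controls against 47.9, 60.2 and 50.6 CPM in RARdn, a log2 ratio of -0.86 without overlap. Most of this was Hist1h1c alone, with 88.6 of the mean 96.2 CPM in controls and 48.8 of the mean 52.9 CPM in RARdn. H3 was the lowest in RARdn relative to control, with 4.49, 6.66 and 5.73 CPM against 3.50, 2.90 and 2.41 CPM (-0.94), again without overlap. H4 gave 9.93, 10.7 and 12.5 CPM in controls against 6.26, 7.52 and 5.62 CPM in RARdn (-0.77), also without overlap. For these 3 types every control was above every RARdn library. H2B overlapped, because RARdn 1 lay above control 1: the values were 54.3, 74.8 and 70.0 CPM in controls against 57.3, 46.9 and 36.4 CPM in RARdn (-0.50). H2A went the other way, with 5.08, 4.51 and 5.10 CPM in controls against 5.82, 10.6 and 12 CPM in RARdn (+0.95). Without the pseudogene Hist1h2al, left out after the values were seen, the H2A means were 4.85 ± 0.291 and 4.85 ± 0.967 CPM. Leaving out RARdn 1 gave log2 ratios of -0.65 for all 70 genes, -0.80 for H1, 1.21 for H2A, -0.67 for H2B, -1.08 for H3 and -0.75 for H4.

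**Figure D1:**
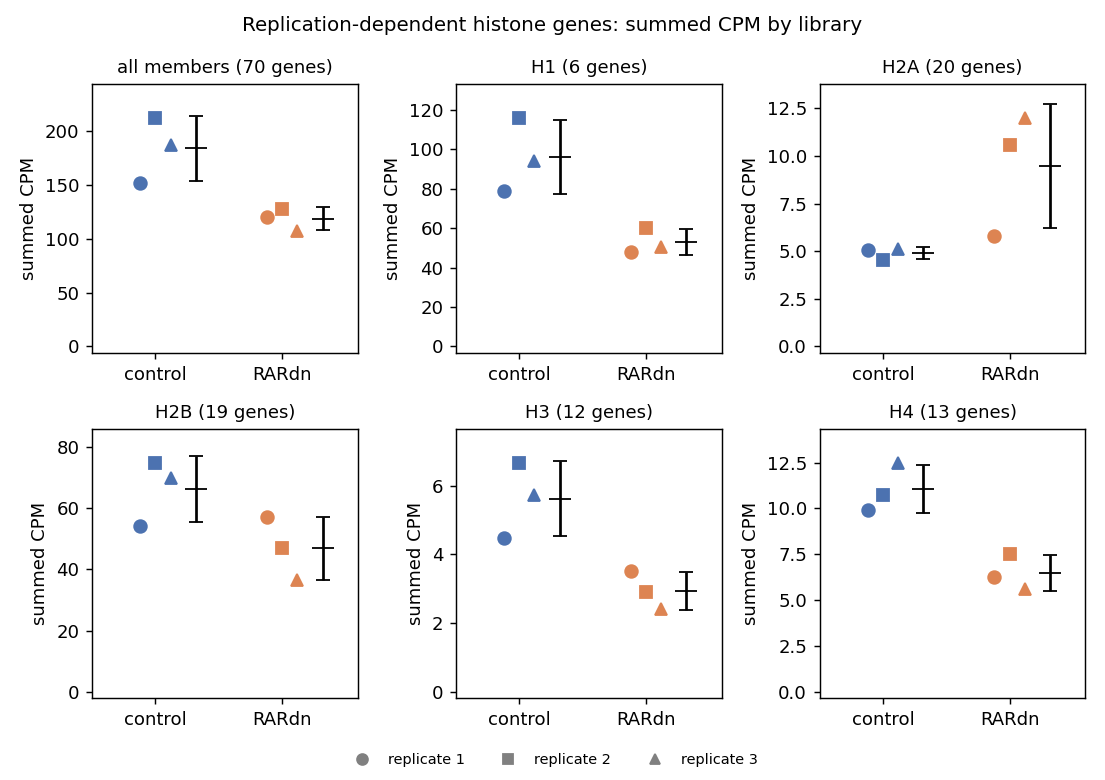
Summed CPM of all 70 histone genes and of each type (vertical axes, each from about 0) in 3 control and 3 RARdn libraries; points are libraries, with a symbol for each replicate number, and the bar is the mean ± SD. H1, H3 and H4 do not overlap between groups, H2B does, and H2A is higher in RARdn.

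Single genes were read from a test of all 19070 genes that passed a filter on low counts (at least 0.225 CPM in at least 3 libraries). Of the 70 histone genes 38 passed it. Of those, 5 were lower in RARdn at an adjusted p under 0.05 and 1 was higher, where 2.65% of all genes tested were called lower and 1.37% higher. Another 32 genes had too few counts, with 480 in total in controls and 247 in RARdn. Of the 38 tested genes 29 had a log2 fold change below 0, against 49.9% of all genes, 16 were lower and 1 higher at an unadjusted p under 0.05, against 10.2% and 12% of all genes, and their median was -0.81 against 0.000513 for all genes. The filter bears on these numbers, because 5 of the genes reached its level in no RARdn library and 1 in no control. Hist1h2bb and Hist1h4f, both called lower, are among the 5, and Hist1h2al, the gene called higher, is the 1. A difference was thus built into their entry to the test. Other genes reached the level in all 3 controls but in fewer RARdn libraries, so their controls alone sufficed as well. Hist1h4d, called lower with 1 RARdn library at the level, is among these. The 18 genes above the filter level in all 6 libraries had a median of -0.37, with 13 below 0 and 2 called lower. Without RARdn 1, the library that stood apart, 4 genes were called lower and 1 higher. In plain CPM the groups did not overlap for 18 of the 38, all controls being higher, and for 1 with RARdn higher, where the shares of all genes tested were 10.2% and 8.13%. After TMM scaling 19 of the 38 were lower without overlap, against 13.7% of all genes.

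**Figure D2:**
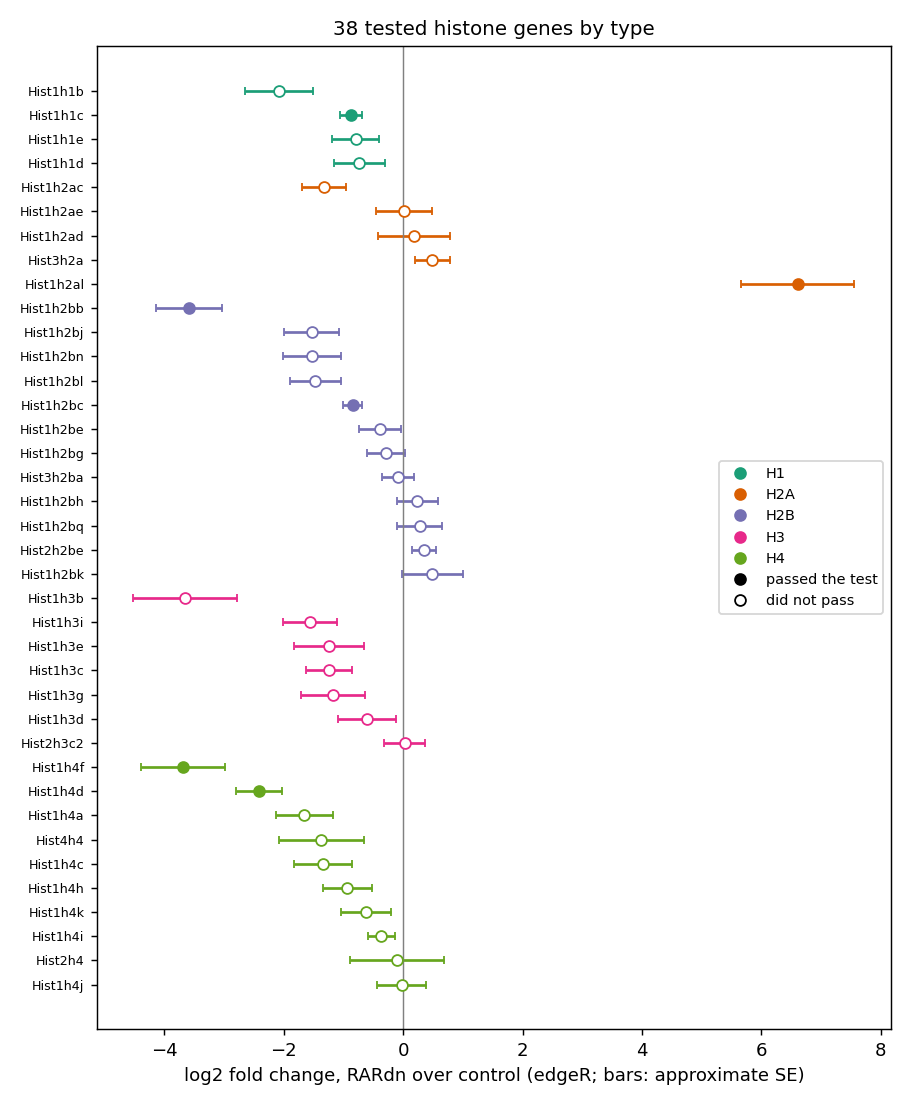
Log2 fold change of RARdn over control for the 38 tested histone genes (horizontal axis, bars are the approximate SE), sorted within type; filled points passed an adjusted p of 0.05. All 4 H1 and all 10 H4 genes lie below 0, and Hist1h2al stands alone at 6.61.

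H1 histones bind the DNA between nucleosomes. Of the 4 tested H1 genes 1 fell, Hist1h1c (H1.2; chr13:23738808-23740367, plus strand), which was the most abundant histone gene for its length, with 56.8 CPM per kilobase of exon in controls and 31.3 in RARdn. It had 72.8, 106 and 86.6 CPM in controls against 45.0, 54.0 and 47.3 CPM in RARdn. Each RARdn library lay below each control, by 0.87 ± 0.186 (SE) on the log2 scale (adjusted p = 0.0418). The call was lost when any 1 library other than RARdn 3 was left out. The adjusted p was 0.0532, 0.163 and 0.12 without control 1, 2 and 3, and 0.0516 and 0.084 without RARdn 1 and RARdn 2. It was 0.0714 with protein-coding genes alone and 0.0629 with genes of at least 1 CPM in 3 libraries. The log2 fold change of Hist1h1c lay between -0.99 and -0.67 over all alternatives. Hist1h1b had 24, 32 and 32 counts in controls and 16, 2 and 5 in RARdn. The groups did not overlap, but the gene did not pass (log2 fold change -2.08, adjusted p = 0.0801), while DESeq2 called it lower (0.0225), as did edgeR with no filter on low counts (0.0316). Hist1h1d gave 3.27, 5.05 and 3.68 CPM in controls against 1.44, 4.09 and 1.62 CPM in RARdn, and Hist1h1e gave 1.74, 3.29 and 2.71 against 0.960, 2.04 and 1.45 CPM. In both genes RARdn 2 lay within the control range, and neither passed (adjusted p = 0.35 and 0.283).

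Promoters were available for 62 of the 70 genes in the RefSeq table for GRCm38.p6, as 250 bases before to 50 after the annotated start. They are shown because genes of 1 type share elements there. CCAAT, the site of the NF-Y complex, TATAAA, the TATA box, ATTTGCAT, the octamer read by Oct-1, and AAACACA, the element of H1 promoters, were searched on both strands and each on its own, so that matches could overlap. CCAAT occurred in all 50 H1, H2A, H2B and H3 promoters and in 3 of 12 H4 promoters, against 37.9% of all 27025 promoters. ATTTGCAT occurred in 38.9% of H2A and 37.5% of H2B promoters, in none of the H1, H3 or H4 promoters, and in 1.8% of all. AAACACA occurred in 5 of 6 H1 promoters (83.3%), against 7.1% of all promoters. TATAAA occurred in 40.0% to 66.7% of the promoters of each type and in 14.2% of all. The lines below show the promoters of 3 genes that fell and of Hist1h2ac, on the strand of the gene, with matches on either strand in capitals.
Hist1h1c (RefSeq H1f2), chr13:23738557-23738856, plus strand: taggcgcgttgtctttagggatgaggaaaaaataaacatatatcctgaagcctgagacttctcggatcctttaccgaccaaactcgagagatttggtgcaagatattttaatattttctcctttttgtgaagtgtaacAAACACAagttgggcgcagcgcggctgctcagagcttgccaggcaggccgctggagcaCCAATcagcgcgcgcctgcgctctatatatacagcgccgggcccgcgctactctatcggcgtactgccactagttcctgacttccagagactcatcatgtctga
Hist1h2ac (RefSeq H2ac6), chr13:23683910-23684209, minus strand: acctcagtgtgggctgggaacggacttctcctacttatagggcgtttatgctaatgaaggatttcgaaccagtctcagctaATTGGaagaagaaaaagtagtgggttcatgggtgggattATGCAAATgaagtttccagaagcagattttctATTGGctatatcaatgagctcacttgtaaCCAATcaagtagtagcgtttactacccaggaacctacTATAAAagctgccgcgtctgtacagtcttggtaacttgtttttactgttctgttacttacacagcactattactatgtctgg
Hist1h2bb (RefSeq H2bc3), chr13:23746484-23746783, plus strand: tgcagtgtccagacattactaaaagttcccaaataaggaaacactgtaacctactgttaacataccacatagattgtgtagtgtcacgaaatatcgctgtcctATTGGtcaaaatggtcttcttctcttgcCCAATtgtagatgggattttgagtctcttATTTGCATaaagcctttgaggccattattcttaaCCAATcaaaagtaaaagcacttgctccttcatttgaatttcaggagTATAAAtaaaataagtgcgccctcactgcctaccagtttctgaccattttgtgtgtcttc
Hist1h4d (RefSeq H4c4), chr13:23581318-23581617, plus strand: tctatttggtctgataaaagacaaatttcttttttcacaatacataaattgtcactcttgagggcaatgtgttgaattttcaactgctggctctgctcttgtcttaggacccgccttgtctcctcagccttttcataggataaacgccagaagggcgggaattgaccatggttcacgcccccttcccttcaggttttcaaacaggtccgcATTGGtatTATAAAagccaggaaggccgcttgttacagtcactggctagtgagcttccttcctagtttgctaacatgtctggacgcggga
The Hist1h1c window holds 1 AAACACA and 1 CCAAT. The Hist1h2ac and Hist1h2bb windows each hold 3 CCAAT, 1 octamer and 1 TATAAA on either strand, and that of Hist1h4d holds 1 CCAAT and 1 TATAAA. A match describes the letters and says nothing of whether a factor bound there.

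H2A pairs with H2B in the nucleosome. Of the 5 tested H2A genes 1 rose and none fell. The gene that rose was Hist1h2al (chr13:51202727-51203065, minus strand), annotated as a processed pseudogene and the only 1 of the 56 genes on chromosome 13 that lies outside the cluster there. It had 4, 0 and 2 counts in controls and 76, 241 and 270 in RARdn. The pooled CPM ratio was 92.4, with a 95% counting interval of 42.2 to 253, and the edgeR log2 fold change was 6.61 ± 0.946 (adjusted p = 0.0135; 0.0669 with limma-voom). The gene entered the test through its RARdn values alone. It held 2.04, 0 and 0.885% of the H2A counts in controls and 27.2, 43.7 and 63.8% in RARdn. RARdn 1 had the lowest of the 3 RARdn values, and the adjusted p was 0.0539 without control 2 and 0.0521 without RARdn 2. Of its 50-base windows 67.6% occur in another annotated gene's transcript, and a predicted miRNA gene lies within it on the opposite strand, so the reads may not all be its own.

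Among the protein-coding H2A genes, Hist3h2a was the most abundant for its length, at 2.75, 2.41 and 1.85 CPM in controls against 2.65, 4.25 and 2.92 CPM in RARdn. The groups overlapped (log2 fold change 0.49, adjusted p = 0.37), and the gene lies inside Trim17, so that reads can be shared. Hist1h2ac had 23, 24 and 34 counts in controls and 16, 13 and 7 in RARdn. Here all RARdn libraries were lower, and the gene did not pass (log2 fold change -1.32, adjusted p = 0.0872). Hist1h2ae gave 12, 10 and 27 counts against 22, 22 and 11, with a log2 fold change of 0.02 (adjusted p = 0.987) whose sign changed when single libraries were left out. A low level was general for this type: 15 of the 20 H2A genes were not tested. In 19 of the 20 a predicted miRNA gene lies within the H2A gene on the opposite strand, and whether such reads were assigned to the H2A gene, to the miRNA or to neither depends on a strand setting that is not given in the sources used here.

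Of the 12 tested H2B genes 2 fell and none rose. Hist1h2bc (chr13:23684199-23692908, plus strand) was the second most abundant histone gene for its length, at 39.8 CPM per kilobase of exon in controls and 22.9 in RARdn. It gave 34.8, 54.8 and 48.5 CPM in controls against 31.9, 25.2 and 22.3 CPM in RARdn. The ranges came close, as RARdn 1 lay just below control 1, and the gene fell by 0.84 ± 0.156 on the log2 scale (adjusted p = 0.0257). The call was lost without control 2 (adjusted p = 0.109), control 3 (0.0897) or RARdn 2 (0.0864), and also with library totals in place of TMM scaling (0.0664) or protein-coding genes alone (0.0537). Hist1h2bc starts 251 bases from Hist1h2ac and runs the other way, so the Hist1h2ac window printed above also covers the start of Hist1h2bc. The fold changes of this pair were -0.84 and -1.32 on the log2 scale.

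Hist1h2bb (chr13:23746734-23747241, plus strand), whose annotated end lies 23 bases after the stem-loop, had 15, 19 and 24 counts in controls and 3, 1 and 1 in RARdn. All 3 RARdn libraries were near 0, and the gene entered the test through its control values alone. It had a pooled ratio of 0.0814 (95% counting interval 0.0255 to 0.201) and a log2 fold change of -3.58 ± 0.552 (adjusted p = 0.0158). Without control 2, control 3 or RARdn 2 the adjusted p was 0.0597, 0.052 and 0.0679. Other abundant H2B genes did not pass the test. Hist2h2be, which lacks a stem-loop match in its annotated transcript, had 6.82, 5.43 and 6.72 CPM in controls against 10.3, 9.31 and 5.45 CPM in RARdn (log2 fold change 0.35, adjusted p = 0.334). Hist3h2ba had 4.62, 4.63 and 3.86 CPM in controls against 7.09, 3.71 and 2.38 CPM in RARdn (-0.08, adjusted p = 0.887). In both genes the groups overlapped, with RARdn 1 the highest library and RARdn 3 the lowest of its group.

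H3 carries most of the tail marks that regulate transcription. None of the 7 tested H3 genes passed with edgeR, 3 were lower at an unadjusted p under 0.05 (10.2% of all genes), and 6 of the 7 lay below 0. DESeq2 and limma-voom each called 1 of them lower, Hist1h3b, which had 11, 11 and 16 counts in controls and 0, 3 and 0 in RARdn and is named here because of those calls. With edgeR its adjusted p was 0.0545. Hist1h3b entered the test through its control values alone. So did Hist1h3i, also among the 3 with an unadjusted p under 0.05. Hist1h3c had 39, 58 and 25 counts in controls and 25, 20 and 12 in RARdn, and Hist1h3e had 29, 38 and 33 against 5, 30 and 10. In CPM both genes were lower in all RARdn libraries, with log2 fold changes of -1.24 each (adjusted p = 0.112 and 0.25). Hist1h3d overlapped, with 20, 83 and 36 counts against 46, 25 and 26 (-0.60, adjusted p = 0.514), and without control 2, its highest library, the log2 fold change was 0.06. Hist2h3c2, in the chromosome 3 cluster, had 23, 23 and 35 counts in controls and 34, 37 and 20 in RARdn (0.03, adjusted p = 0.966).

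H4 forms the core of the nucleosome with H3, and most H4 genes encode the same protein. Of the 10 tested H4 genes 2 fell, and all 10 had a log2 fold change below 0. Hist1h4d (chr13:23581598-23582735, plus strand) had 46, 54 and 49 counts in controls and 10, 16 and 5 in RARdn. In CPM the controls lay between 1.11 and 1.21 and the RARdn libraries between 0.142 and 0.308, a log2 fold change of -2.41 ± 0.381 (adjusted p = 0.0164). Only 1 RARdn library reached the filter level, so the controls alone sufficed for the gene's entry to the test. Without control 1, 2 or 3 the adjusted p was 0.0517, 0.0672 and 0.053. Hist1h4f (chr13:23551258-23551648, minus strand) had 10, 19 and 21 counts in controls and 3, 1 and 0 in RARdn. The groups were apart, and this gene too entered the test through its control values alone. It had a pooled ratio of 0.0755 (95% counting interval 0.0198 to 0.206) and a log2 fold change of -3.68 ± 0.699 (adjusted p = 0.0279). The adjusted p was 0.0527, 0.111 and 0.0878 without control 1, 2 and 3, 0.102 without RARdn 2 and 0.0619 with protein-coding genes alone.

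The more abundant H4 genes differed less. Hist1h4i, the H4 gene with the highest level per length in controls (4.83 CPM per kilobase of exon), had 3.32, 3.33 and 3.88 CPM in controls against 2.65, 2.77 and 2.84 CPM in RARdn. All RARdn libraries were lower, and the log2 fold change of -0.36 did not pass (adjusted p = 0.38). Hist1h4h gave 1.61, 1.74 and 2.75 CPM against 0.709, 1.52 and 0.964 CPM, also without overlap and also not passing (-0.93, adjusted p = 0.221).

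**Figure D3:**
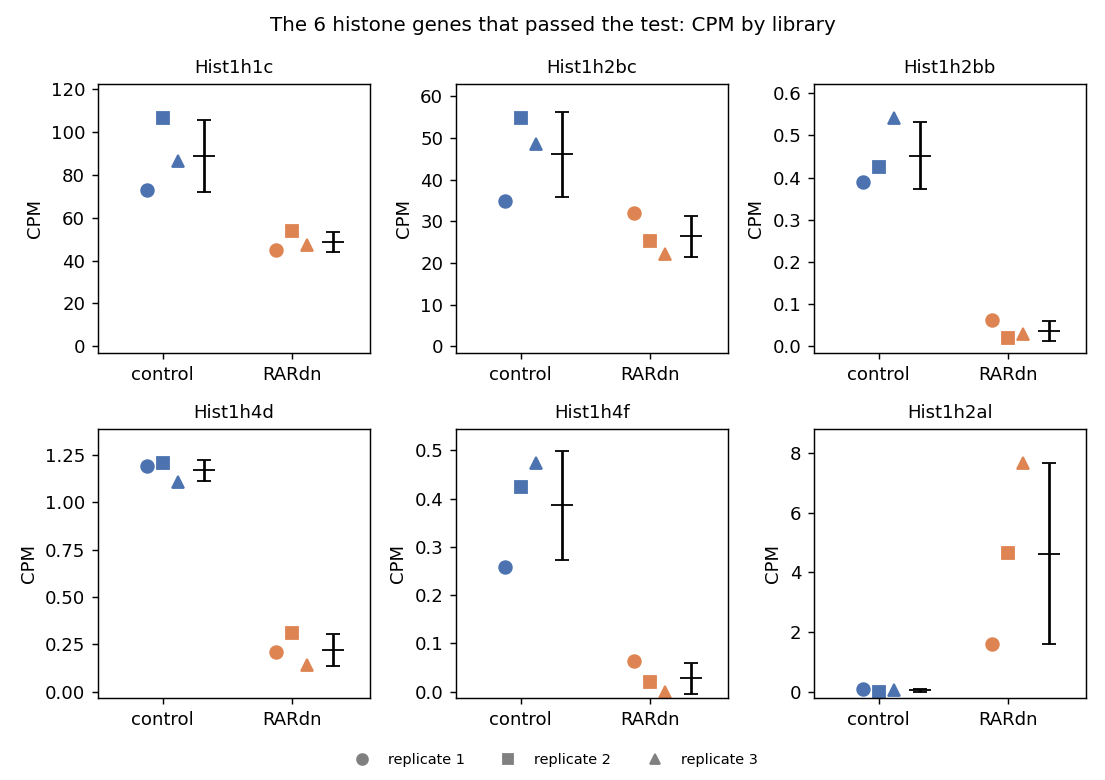
CPM (vertical axes) of the 6 histone genes that passed the test, in 3 control and 3 RARdn libraries; points are libraries, with a symbol for each replicate number, and the bar is the mean ± SD. Hist1h1c and Hist1h2bc lie above 20 CPM in every library, the other 3 that fell are near or under 1 CPM, and Hist1h2al is near 0 in controls.

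The 5 genes that fell all lay in 1 block of the chromosome 13 cluster, which held 21 of the 38 tested genes. The 31 genes of that cluster distal to the gap (larger coordinates) summed to 126, 188 and 162 CPM in controls against 89.7, 97.9 and 81.2 CPM in RARdn (log2 ratio -0.83). The 24 proximal genes summed to 9.28, 10.3 and 11.1 CPM against 8.22, 6.42 and 6.18 CPM (-0.56). In both blocks the groups did not overlap. The 21 tested distal genes had a median log2 fold change of -0.93, with 18 below 0. The 10 tested proximal genes had a median of -1.04, with 8 below 0 and none called. At an unadjusted p under 0.05 in edgeR, 11 distal and 5 proximal genes were lower, against 10.2% of all genes. The 10 genes of the chromosome 3 cluster gave 8.79, 6.46 and 7.99 CPM in controls against 11.2, 11.1 and 6.64 CPM in RARdn (+0.31), and the 3 genes on chromosome 11 gave 7.39, 7.04 and 5.75 against 9.87, 8.02 and 5.39 CPM (+0.21). Both of these smaller clusters overlapped between groups, and the difference between clusters was not tested.

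The genes were then split by how far the annotated transcript runs past the stem-loop, a split made after the values were seen. In 22 genes it ended within 100 bases, in 22 it ran further, and in 26 no match was found. Genes that end near the stem-loop summed to 6.17, 7.09 and 7.85 CPM in controls against 3.63, 3.73 and 2.81 CPM in RARdn, which is 48.2% of the control mean. The extended genes summed to 99.7, 139 and 117 CPM against 69.1, 82.5 and 66.4 CPM, which is 61.2%. Most of the extended sum was Hist1h1c alone, with 88.6 of the mean 119 CPM in controls and 48.8 of the mean 72.7 CPM in RARdn. That sum therefore mainly describes this gene. Summed in this way, both classes were lower in every RARdn library. No match says only that the annotated transcript lacks it: sequence past annotated ends was not searched, and some are annotated over few bases (312 in Hist1h4k and 381 in Hist1h2bl). Genes without a match overlapped, with 46.5, 66.1 and 62.7 CPM against 48.1, 41.8 and 37.9 CPM (72.9%), mostly from Hist1h2bc, with a mean of 46.0 CPM in controls and 26.5 CPM in RARdn. Of the tested genes that end near it 6 of 8 were below 0 (median log2 fold change -1.39), and of the extended genes 15 of 19 (median -0.38). Of the 11 tested genes without a match 8 were below 0 (median -1.17). The values vary within each class: Hist1h2ad and Hist1h2bk, picked after their values were seen, end 42 and 30 bases after the stem-loop and had log2 fold changes of 0.18 and 0.49, while Hist1h4d runs 770 bases on and fell. Of the 8 tested genes that end near it, 3 reached the filter level in no RARdn library, and the difference between the classes was not tested.

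**Figure D4:**
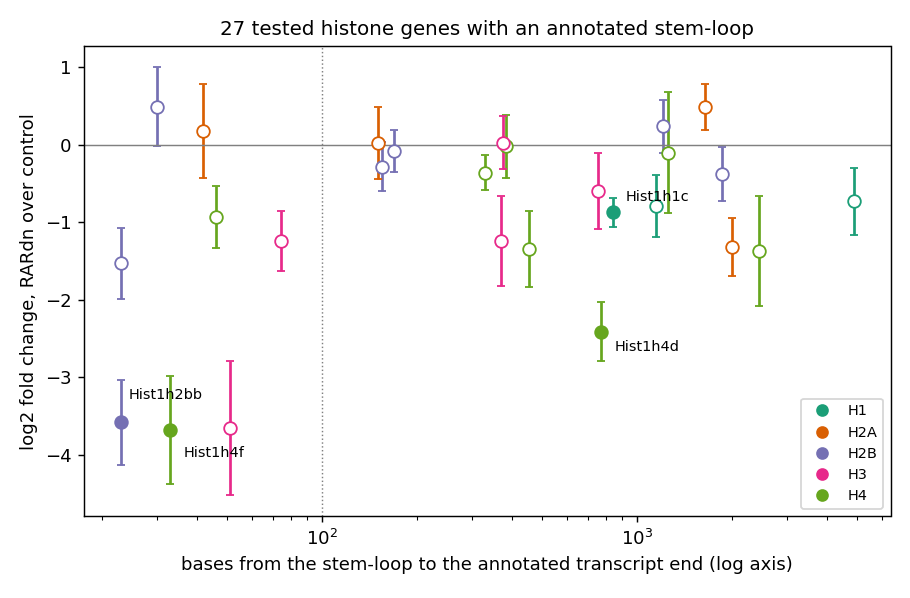
Log2 fold change of RARdn over control (vertical axis, bars are the approximate SE) against the bases from the stem-loop to the annotated transcript end (horizontal log axis) for 27 tested genes, coloured by histone type; filled points passed an adjusted p of 0.05 and the dotted line marks 100 bases. The 3 values below -3.5 lie left of the line, where 3 other genes lie between -1.53 and -0.93 and 2 lie above 0.

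Measures of the libraries outside the histone genes also separated the groups. The 354 symbols annotated as ribosomal RNA held 0.946, 0.944 and 0.90% of the counts in genes in controls and 0.0819, 0.0718 and 0.073% in RARdn. Reads outside genes were 8.99, 8.88 and 7.60% of all reads in controls and 5.30, 4.84 and 2.90% in RARdn. Every control exceeded every RARdn library in both. A list of 26 RNAs other than histone mRNAs was drawn up as lacking an ordinary poly(A) tail. Of these 9 were tested, and 8 had a log2 fold change below 0. With edgeR 4 fell, where 2.65% of all genes tested were called lower. The median log2 fold change was -1.76 against 0.000513 for all genes. Rn7sk, the 7SK RNA that restrains the elongation factor P-TEFb, had 27.3, 24.7 and 24.2 CPM in controls against 1.27, 0.692 and 0.114 CPM in RARdn (adjusted p = 0.00138). Malat1, a long nuclear RNA that ends in a triple helix, had 2373, 2815 and 1735 CPM against 260, 314 and 96.8 CPM (adjusted p = 0.00631). Both were lower in every RARdn library than in any control. Rn7s2, a signal recognition particle RNA, and Rny3, a Y RNA, also fell (log2 fold changes -5.43 and -4.87, adjusted p = 0.0143 and 0.0178). Without control 2 or without RARdn 2 the number that fell was 2. Neat1 had 47.3, 55.6 and 46.8 CPM in controls against 30.5, 93.1 and 39.1 CPM in RARdn, with overlap (adjusted p = 0.873). The labels name total RNA and do not say how ribosomal RNA was removed or whether poly(A) RNA was selected. The part of these library differences in the lower histone counts was not tested, and because they separate the groups completely, they cannot be told apart from genotype.

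**Figure D5:**
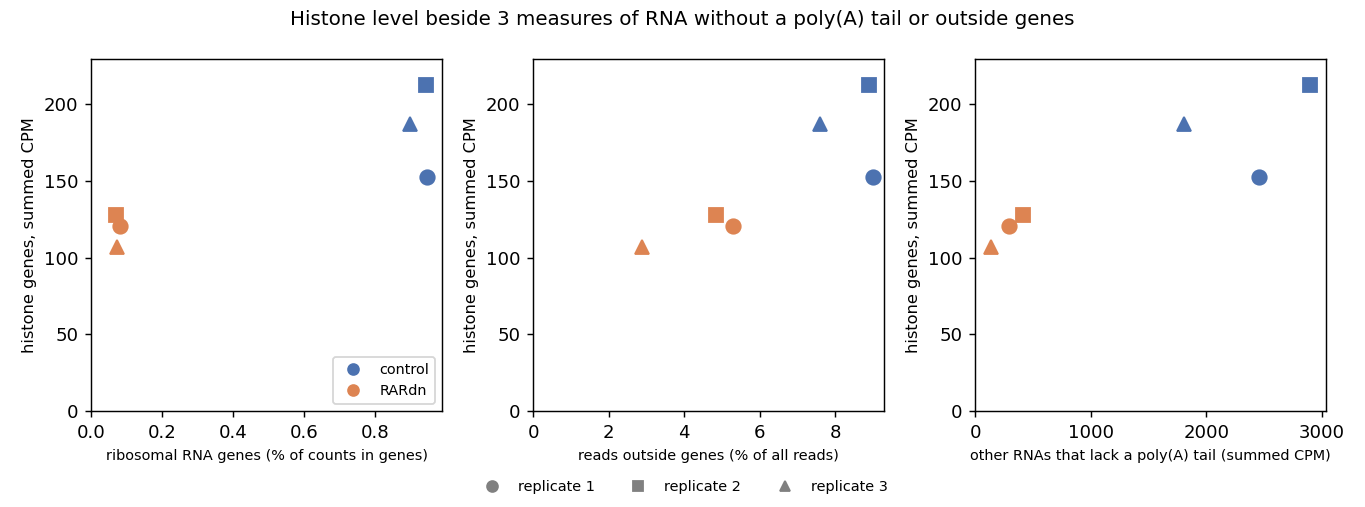
Summed CPM of the 70 histone genes (vertical axis) against the ribosomal RNA share of counts in genes, the share of reads outside genes and the summed CPM of 26 other RNAs listed as lacking an ordinary poly(A) tail (horizontal axes) in 6 libraries. All 3 controls lie right of and above all 3 RARdn libraries in each panel. Most of the summed CPM of the 26 RNAs is Malat1 alone.

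Most genes that make and process histone mRNA did not pass the test. Of 42 listed 39 were in the tables and 38 were tested, with 1 higher, none lower and a median log2 fold change of 0.01. Among all genes tested 1.37% were called higher and 2.65% lower. Slbp gave 34.0, 30.3 and 30.7 CPM in controls against 44.9, 31.9 and 27.8 CPM in RARdn (adjusted p = 0.659). Npat, which activates histone gene transcription, gave 25.4, 24.6 and 25.9 against 41.2, 25.4 and 20.05 CPM (adjusted p = 0.673). Both overlapped between groups, with RARdn 1 the highest library. Casp8ap2 (FLASH), Lsm10 and Lsm11 of the U7 particle, Zfp473 (ZFP100) and Eri1, an exonuclease that acts at the stem-loop, also overlapped, with adjusted p from 0.348 to 0.952. The gene that rose was Nfya, the subunit of NF-Y that contacts CCAAT, with 34.1, 38.4 and 33.2 CPM in controls against 61.1, 47.7 and 44.6 CPM in RARdn (log2 fold change 0.50, adjusted p = 0.0249). The call was absent without any 1 of the controls or without RARdn 2. The other subunits, Nfyb and Nfyc, had log2 fold changes of -0.22 and -0.23 and did not pass (adjusted p = 0.233 and 0.26), and they are named after their values were seen.

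All 25 listed histone chaperones were tested, and 2 fell, where 2.65% of all genes tested were called lower. Atrx, which works with Daxx to place H3.3, gave 179, 204 and 180 CPM in controls against 178, 120 and 101 CPM in RARdn (log2 fold change -0.56, adjusted p = 0.0456). Ubn2, of the HIRA complex, gave 69.1, 76.1 and 62.6 against 60.8, 48.8 and 34.6 CPM (-0.58, adjusted p = 0.035). In both RARdn 1 lay just below the controls, and no chaperone was called without any 1 of the controls or without RARdn 2. The list's median was -0.08. Both were chosen for naming after their values were seen, as the whole of that count.

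Histone variants that are mostly made outside S phase, and mostly from mRNAs with poly(A) tails, gave a comparison within the family. Of 13 listed 11 were tested, and none passed with edgeR or DESeq2, with 2 at an unadjusted p under 0.05, where all genes had 10.2% lower and 12% higher, and a median log2 fold change of 0.07. H3f3b, an H3.3 gene, had 533, 552 and 515 CPM in controls against 592, 441 and 448 CPM in RARdn (adjusted p = 0.558). The linker variant H1f0 had 452, 464 and 446 CPM against 383, 419 and 387 CPM, lower in each RARdn library (log2 fold change -0.21, adjusted p = 0.502). H2afz, the H2A.Z gene, had 198, 192 and 196 CPM against 242, 166 and 138 CPM (adjusted p = 0.47). Per count of these variants, the 70 genes had 0.089, 0.123 and 0.112 counts in controls and 0.0607, 0.0821 and 0.0734 in RARdn. Every RARdn library was thus below every control on this ratio too. Hist1h1c and Hist1h2bc held 70.6 to 75.9% of its histone counts in controls and 61.8 to 65.0% in RARdn. The ratio without these genes was not computed.

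DNA replication genes, which mark the phase in which these histones are made, did not pass either: of 37 tested none was called with edgeR and 1 with DESeq2, 2 had an unadjusted p under 0.05 (10.2% of all genes lower and 12% higher), and the median was -0.07. Mcm6, a subunit of the replicative helicase, had 153, 155 and 154 CPM in controls against 187, 110 and 132 CPM in RARdn (adjusted p = 0.552). Dnmt1, which copies DNA methylation, had 126, 123 and 139 against 180, 102 and 102 CPM (adjusted p = 0.789), and Pcna, the sliding clamp, had 117, 112 and 115 against 159, 89.8 and 85.7 CPM (adjusted p = 0.673). The 3 genes shared 1 pattern, with RARdn 1 above the controls and RARdn 2 and 3 below. Per count of the replication list the histone genes had 0.0844, 0.118 and 0.103 counts in controls and 0.0487, 0.0933 and 0.0736 in RARdn, and on this ratio RARdn 2 lay above control 1.

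Markers of other cells moved with the groups in part. For scale, edgeR called 2.65% of all genes tested lower and 1.37% higher. The 7 proliferation markers summed to 972 to 1021 CPM in controls and to 1056, 531 and 592 CPM in RARdn, and 6 of the 7 had a log2 fold change below 0. None was called with edgeR and 2 with DESeq2. The 4 mesenchyme markers summed to 3480 to 4743 CPM in controls and 5240 to 7004 CPM in RARdn, with no overlap. All 4 had log2 fold changes above 0 (0.53 to 0.92). None was called with edgeR and all 4 with DESeq2. The 4 lymphoid markers summed to 2.23 to 4.72 CPM and 6.52 to 10.1 CPM, with 1 called higher (Ltb), and the 4 liver markers to 378 to 403 and 384 to 1735 CPM, with 1 called higher (Alb). The 6 red cell markers overlapped, at 3842 to 5306 and 3066 to 5470 CPM, and the 4 male germ cell markers summed to at most 0.581 CPM in any library. The 8 pancreas epithelial markers summed to 18160 to 19610 CPM in controls and to 7948, 16260 and 21330 CPM in RARdn 1, 2 and 3, with 1 called lower (Ins2). Their part in the histone differences was not tested.

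The genes that were not tested followed the same order in sum, with 2.85, 3.78 and 4.53 CPM in controls against 2.17, 1.75 and 1.48 CPM in RARdn. Of the 70 genes 6 had no count in any library, Hist1h2aa, Hist2h2aa1, Hist2h2aa2, Hist2h2bb, Hist2h3b and Hist2h3c1. In 5 of these every 50-base window also occurs in the transcript of another annotated gene, so a read from them has no unique place among annotated transcripts. No other histone gene shares all of its windows. Counts of 0 in such genes do not show that the gene was silent. In all, 26 of the 70 genes overlap another annotated gene, and values for genes with near-identical copies are uncertain for the same reason.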

How the data were processed

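Total RNA of whole pancreas was sequenced in 6 samples, and the authors deposited raw read counts per gene symbol, 1 table a sample. The submitters' processing notes name the tools HISAT2, HTSeq, DESeq2, bedtools, FastQC and cutadapt and the builds mm10 and GRCm38. For tool versions, annotation, strand setting and any selection of poly(A) RNA, the answer is not given in the sources used here. The 5 summary lines (31.0% ± 0.516 of reads in controls and 27.1% ± 1.55 in RARdn) entered neither library sizes nor tests.

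The test was run in edgeR 4.0.16 (R 4.3.3): filterByExpr with the group, TMM scaling, glmQLFit and glmQLFTest (2-sided, genotype the only term), with p-values adjusted over 19070 genes by the Benjamini-Hochberg method. All adjusted p-values come from this test unless another tool is named, and SEs were worked back from its F statistic. On simulated counts the test called 72.9% of genes changed 2-fold and 95.8% of those changed 4-fold, among 19010 genes tested. It also called 7 unchanged genes. The simulated spread followed the average trend with level, no library stood apart, and changed genes were drawn from all genes tested. These rates therefore need not hold for the histone genes, many of which had few counts. Counting intervals are exact for 2 Poisson counts, at 95%, and cover counting error only. Alternatives were DESeq2 1.42.0, limma-voom (limma 3.58.1), other scalings and filters, a replicate block and leaving out each library. Pairs of libraries within a group differed by more than sampling noise (chi-square per degree of freedom 13.8 to 407). Positions, exons and transcripts came from GENCODE for GRCm38.

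Histone genes were named by type: called ones first, by p, then the most abundant until 4 were reached. Listed genes were named if called, plus 7 fixed processing genes and the 3 most abundant of the variant and the replication lists. The members and lists were chosen with earlier results of these data known.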

Additional observations from a re-analysis of the deposited data

How the results depend on the processing

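Of the histone genes, 5 were called lower and 1 higher. The lower count was 2 with protein-coding genes alone or with at least 1 CPM in 3 libraries (14 histone genes tested), 8 with no filter, 7 with DESeq2, 6 with limma-voom, 4 with library totals alone (without Hist1h2bc) and 0 to 5 leaving out 1 library (0 without control 2 and without control 3). The higher count was 0 with limma-voom (Hist1h2al had an adjusted p of 0.0669), 0 with protein-coding genes alone, which leave out this pseudogene, and 0 to 1 leaving out 1 library. Summed over the type and without Hist1h1c and Hist1h2bc, the log2 ratio was -0.19 for all members and 0.0028 for H2B, the latter also without its most abundant member. For H2A it was -0.02 over protein-coding genes alone and -0.001 without Hist1h2al, and for H4 it was -1.02 without Hist1h4i. The sign turned for Hist1h2ae (-0.01 with protein-coding genes alone, -0.11, -0.27 and -0.06 without control 1, control 2 and RARdn 2, to 0.55 without control 3), Hist2h3c2 (-0.01, -0.11 and -0.05 without the same libraries, to 0.24), Hist1h3d (0.06 without control 2, to -0.92) and Hist3h2ba (0.01 with library totals alone, 0.13 without RARdn 3, to -0.39). The cause of these changes was not tested. In the processing list the calls were 2 with DESeq2, 0 with library totals or protein-coding genes alone and 0 to 3 leaving out 1 library. Among chaperones they were 4 with DESeq2 or no filter, 0 with library totals, protein-coding genes alone or at least 1 CPM, and 0 to 4 leaving out 1 library. Among variants they were 1 with no filter and 0 to 2 leaving out 1 library, and in the replication list 1 with DESeq2 and 0 to 1. Of the other RNAs listed as lacking an ordinary poly(A) tail, 0 were called with protein-coding genes alone, where none is tested, 2 with at least 1 CPM and 2 to 4 leaving out 1 library. Over all genes, 505 were lower and 262 higher, against 973 and 973 with DESeq2, 67 and 44 with protein-coding genes alone, 1223 and 1123 with no filter, 140 and 77 with at least 1 CPM, 349 and 125 with library totals alone, and 71 to 1576 and 22 to 1404 leaving out 1 library.

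Deviations from the group mean in samples with the same replicate number had correlations of 0.00188, -0.0632 and 0.146. These values give no clear sign that the numbers pair the samples, and 3 libraries per group are too few to exclude it. With the replicate block 4 histone genes were lower (Hist1h4f had an adjusted p of 0.0505), 1 chaperone was called, and 496 genes in all were lower and 321 higher. Control 1 correlated best with RARdn 2 (0.169), as a hint from the data alone.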
